A study of Bos taurus with 22 samples.

Results

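Goblet cells are the mucus-secreting cells of the intestinal epithelium, and 10 genes that mark them were looked up by symbol in the count table of the jejunal mucosa of Holstein steers. Of the 10, 7 were found among the 27570 genes counted: TFF3, CLCA1, SPDEF, AGR2, REG4, SPINK4 and ATOH1. The symbols MUC2, FCGBP and ZG16 are not paired with any row of the table, where 7243 rows carry no symbol, and no value is given for them. All 7 genes found passed the filter on low counts and were tested in each of 7 comparisons.

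Goblet cells arise from crypt progenitors that escape Notch signaling and express ATOH1, the basic helix-loop-helix factor that sets the secretory fate, after which SPDEF, an ETS factor, drives their maturation. They fold, glycosylate and pack gel-forming mucin into granules with the help of the protein disulfide isomerase AGR2. They release it together with small proteins such as the trefoil peptide TFF3, the metalloprotease CLCA1, the lectin REG4 and the protease inhibitor SPINK4, and the resulting gel keeps luminal bacteria and digesta away from the epithelium. GLP-2 is a peptide of enteroendocrine L cells that is known for stimulating growth of the intestinal mucosa.

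All 22 steers were 10 to 12 months of age and received raw corn starch into the abomasum (3.94 g/kg body weight per d) for 7 d, so that no treatment here lacked postruminal starch. Control steers (n = 5) received water by the same route and subcutaneous vehicle with bovine serum albumin (BSA). GLP-2 steers (n = 5) received water and exogenous GLP-2 (100 µg/kg per d in 2 injections). Casein steers (n = 6) received postruminal casein infusion (1.30 g/kg per d, as sodium caseinate) and vehicle, and casein + GLP-2 steers (n = 6) received both. Steers were assigned within 6 replicate blocks by body weight, and 1 further control and 1 further GLP-2 steer were not analysed here. The authors left out 1 control sample for low RNA integrity and report that integrity varied among the others. The labels do not give it per steer, so its part in the values below was not tested. The mucosa was scraped from the middle of the jejunum, so each library mixes epithelium with whatever lamina propria, lymphoid tissue and muscle came with it. In such bulk samples, fewer goblet cells and less RNA per goblet cell cannot be told apart.

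Total counts per library ranged from 8809666 to 28447810, and the 7 genes held from 18 counts (ATOH1, lowest steer) to 30741 counts (TFF3, highest steer). In the header of the count table, 17 columns run in rising number order and 5 more follow in which the numbering starts again. These 5 trailing libraries, control replicates 3 and 5 and casein replicates 1, 3 and 5, are all from BSA steers, so this column set and GLP-2 cannot be fully told apart. The labels give the set no name, and their depth (11011029 to 23666186 counts) was within the range of the others. Across 15086 genes, the 5 lay below all 17 other libraries in 0.676% of genes and above them in 0.981%. Because several goblet cell genes were low in these 5, each result below was also computed on the 17 leading libraries alone, an alternative chosen after the files were seen.

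On the per-length scale (FPKM, fragments scaled by transcript length and library size), TFF3 and SPINK4 were the most abundant goblet cell genes. Their median levels over 22 steers were 666 and 602 FPKM, and TFF3 exceeded SPINK4 in only 11 of 22 steers, so their order was not fixed. AGR2 followed at 302 FPKM and was below SPINK4 in every steer. CLCA1, at 233 FPKM, was below AGR2 in 19 of 22 steers and above REG4, at 93.5 FPKM, in 14 of 22. The transcription factors were scarcest, with SPDEF at 7.10 and ATOH1 at 2.70 FPKM, and that order held in 22 of 22 steers. The levels spread widely between steers: the highest steer was 8.43-fold above the lowest for SPDEF, 10.3-fold for TFF3 and 31.5-fold for CLCA1.

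**Figure D1:**
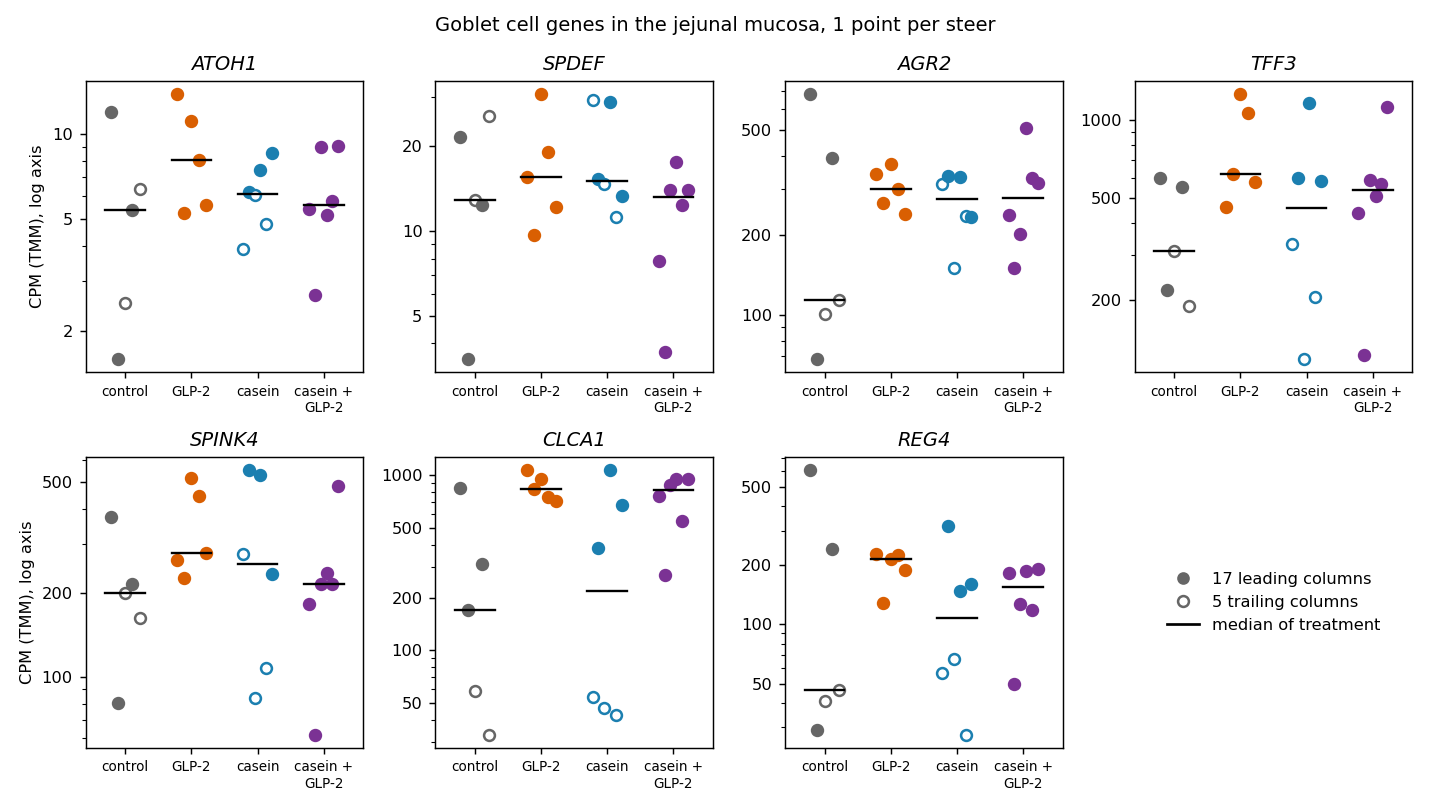
Level of each goblet cell gene in every steer, as CPM, counts scaled to library size with TMM factors (log axis), by treatment. Filled points are the 17 leading libraries, open points the 5 trailing ones, and lines the treatment medians. CLCA1 lies between 32.97 and 58.7 CPM in the 5 trailing libraries and between 169 and 1073 CPM in the others.

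Exogenous GLP-2 administration was compared with BSA over both casein levels (11 against 11 steers) to ask whether goblet cell transcripts rose with a peptide that enlarges the mucosa. No goblet cell gene passed the adjusted threshold in edgeR: 0 of 7 were called by its quasi-likelihood test, where 13.5% of the 13928 genes tested were. By DESeq2 0 of 7 were called too, where 22.4% of all genes were, and by edgeR without a filter on low counts 0 of 7, where 6.93% were. With limma 1 of 7, CLCA1, was called on log2(FPKM + 1) (log2 fold change 2.13, adjusted p = 0.0281), where 15% of all genes were, and 1 of 7 on log2(FPKM + 0.1), where 14.2% were. In edgeR 1 gene, CLCA1, had an unadjusted p at or under 0.05, where 34.6% of all genes did. The median log2 fold change of the 7 genes was 0.15, against 0.0079 for all genes tested, and 6 of 7 were above 0, as were 50.7% of all genes. On the 17 leading libraries 3 of 7 were above 0, and the median was -0.18. Of the 7 intervals, 6 spanned 0.

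ATOH1 (ENSBTAG00000002895, chromosome 6, 30714651 to 30716815, minus strand, ARS-UCD1.2) is a gene of few transcripts in this mucosa. In GLP-2 steers it was at 13.8, 5.22, 11.1, 8.05 and 5.57 CPM, and in control steers at 11.9, 1.59, 2.51, 5.35 and 6.36 CPM. In casein steers it ranged from 3.91 to 8.55 CPM with a median of 6.11, and in casein + GLP-2 steers from 2.69 to 9.05 with a median of 5.58. The 4 treatments overlapped, and control replicate 2 was the lowest of all steers. The log2 fold change between GLP-2 and BSA was 0.31 (SE 0.290, 95% interval -0.29 to 0.91, adjusted p = 0.455 by edgeR).

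SPDEF (ENSBTAG00000021993, chromosome 23, 8591537 to 8608865, minus strand) was the only goblet cell gene whose estimate was below 0 with GLP-2. It ranged from 3.73 to 30.6 CPM in the GLP-2-injected steers, with a median of 13.98, and from 3.53 to 29.1 CPM in BSA steers, with a median of 14.7. Its log2 fold change was -0.27 (SE 0.299, 95% interval -0.89 to 0.35, adjusted p = 0.531). The lowest steers of each side, casein + GLP-2 replicate 2 and control replicate 2, stood well below the rest.

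AGR2 (ENSBTAG00000024406, chromosome 4, 25290663 to 25304186, minus strand) showed more spread among control steers than in any other treatment. The control steers were at 681, 68.5, 101, 390 and 114 CPM, whereas GLP-2 steers lay between 242 and 371 CPM. Control replicate 1 was the highest of all 22 steers and control replicate 2 the lowest, so that the 2 ends of the range came from the same treatment. Casein steers lay between 150 and 336 CPM and casein + GLP-2 steers between 150 and 510. The log2 fold change with GLP-2 was 0.14 (95% interval -0.47 to 0.75, adjusted p = 0.758), and on the 17 leading libraries it was -0.24 (-0.91 to 0.43).

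TFF3 (ENSBTAG00000021276, chromosome 1, 142565466 to 142569246, minus strand) was at 461, 617, 1263, 1069 and 575 CPM in GLP-2 steers. In control steers it was at 599, 219, 311, 552 and 190 CPM, and the highest control exceeded 2 of the 5 GLP-2 steers. In casein steers the lowest, median and highest values were 119, 456 and 1167 CPM, and in casein + GLP-2 steers they were 123, 537 and 1127. The estimate with GLP-2 was 0.59 on the log2 scale (95% interval -0.15 to 1.32, adjusted p = 0.241), and on the 17 leading libraries it was 0.08 (-0.70 to 0.85).

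SPINK4 (ENSBTAG00000032093, chromosome 8, 75010301 to 75017081, plus strand), a small secreted inhibitor of the Kazal type, ranged from 62.0 to 516 CPM in GLP-2-injected steers and from 80.4 to 551 CPM in BSA steers. The medians, 236 and 215 CPM, were close beside that spread. Its log2 fold change was 0.15 (95% interval -0.56 to 0.85, adjusted p = 0.777), and on the 17 leading libraries it was -0.26 (-1.06 to 0.55).

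CLCA1 (ENSBTAG00000008161, chromosome 3, 57558897 to 57592968, minus strand), a secreted metalloprotease that processes mucin, had the largest estimate of the 7 genes. GLP-2 steers were at 1073, 838, 947, 751 and 715 CPM, and control steers at 847, 169, 58.7, 312 and 32.97 CPM. Casein + GLP-2 steers ranged from 271 to 958 CPM with a median of 820, and casein steers from 42.7 to 1068 with a median of 219. GLP-2-injected steers were thus tightly grouped with 1 exception, casein + GLP-2 replicate 2, while BSA steers spanned the whole range. The log2 fold change was 1.23 (SE 0.526, 95% interval 0.15 to 2.32, unadjusted p = 0.0274, adjusted p = 0.103 by edgeR).

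The low CLCA1 values of BSA steers were those of the 5 trailing libraries. In these 5 CLCA1 lay between 32.97 and 58.7 CPM (median 46.8), below each of the 17 leading libraries, while the other 6 BSA steers lay between 169 and 1068 CPM (median 532), 11.4-fold higher by medians. Those 6 overlapped the 11 GLP-2-injected steers (271 to 1073 CPM, median 838), and on the 17 leading libraries the log2 fold change was 0.42 (SE 0.327, 95% interval -0.26 to 1.11, adjusted p = 0.557). With the column set as a term it was 0.45 (adjusted p = 0.567). With the replicate block as a term in the fit on all 22 steers it was 1.74 (adjusted p = 0.0603, where 4.95% of all genes were called).

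Medians were also lower in the 5 trailing libraries than in the other 6 BSA steers for REG4 (4.36-fold), TFF3 (2.87-fold), AGR2 (2.22-fold), SPINK4 (1.88-fold) and ATOH1 (1.42-fold). Their ranges overlapped those of the 6 for each of these genes. SPDEF did not share this, with medians of 14.7 CPM in the 5 and 14.3 CPM in the 6. Other cell types moved with the same 5 libraries. The summed level of 20 villus enterocyte markers was 3427 to 35231 CPM in them (median 11439) and 26416 to 97716 in the other 6 BSA steers (median 53716). The 10 smooth muscle markers summed to 344 to 1578 CPM against 80.8 to 217 CPM, and the 16 B cell follicle markers had medians of 1384 and 170 CPM. Their part in the CLCA1 difference was not tested.

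REG4 (ENSBTAG00000032193, chromosome 3, 23483918 to 23508035, plus strand), a secreted C-type lectin, was at 228, 129, 215, 226 and 189 CPM in GLP-2 steers and at 609, 29.0, 41.0, 243 and 46.3 CPM in control steers. GLP-2 steers sat inside the span of the controls, which held both the highest value of all and 3 of the 5 lowest. The log2 fold change with GLP-2 was 0.07 (95% interval -0.86 to 1.00, adjusted p = 0.919). On the 17 leading libraries the estimate was -0.63 (95% interval -1.47 to 0.22, adjusted p = 0.485).

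**Figure D2:**
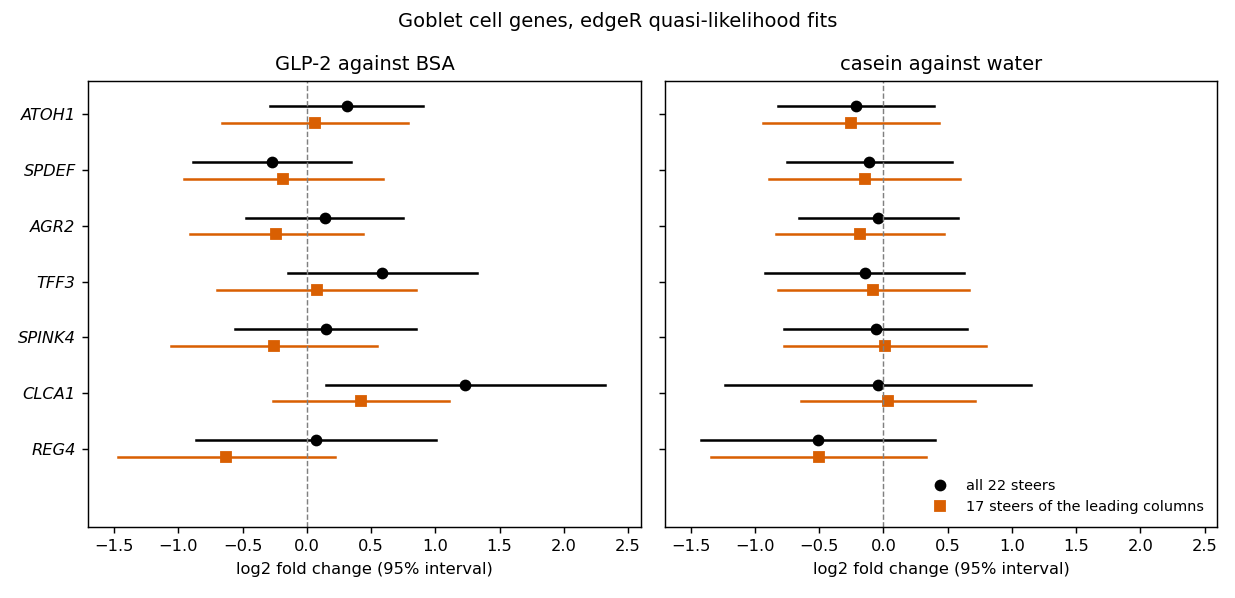
Log2 fold change of each goblet cell gene with its 95% interval from edgeR's quasi-likelihood fit, for GLP-2 against BSA (left) and casein against water (right), on all 22 steers (circles) and on the 17 leading libraries (squares). Only the CLCA1 interval with GLP-2 on all 22 steers, 0.15 to 2.32, lies above 0.

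Postruminal casein infusion was compared with water over both GLP-2 levels (12 against 10 steers). No goblet cell gene was called by edgeR (0 of 7, where 0% of the 14096 genes were) or by DESeq2 (0 of 7, where 0.0355% were), and none had an unadjusted p at or under 0.05, where 3.36% of all genes did. The median of the 7 log2 fold changes was -0.11, and they lay between -0.51 for REG4 and -0.039 for AGR2. For REG4 the medians were 138 CPM with casein and 202 CPM with water (log2 fold change -0.51, 95% interval -1.42 to 0.40, adjusted p = 0.994). For TFF3 they were 537 and 564 CPM (-0.15, 95% interval -0.92 to 0.63). The interval for CLCA1 ran from -1.23 to 1.15, the widest of the 7.

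The 4 treatments were then fitted in 1 model (15086 genes) to ask whether GLP-2 acted on goblet cell genes with and without casein. In each of its 5 contrasts 0 of 7 goblet cell genes were called by edgeR, where 0% of all genes were, and 0 of 7 by DESeq2. Of all genes DESeq2 called 2.04% in GLP-2 against control, 6.55% in casein + GLP-2 against casein, 0.0663% in casein against control, 0.0332% in casein + GLP-2 against GLP-2 and 0.0133% in the interaction. None of the 7 had an unadjusted p at or under 0.05 in edgeR. Of all genes, 13.9% did in GLP-2 against control, 24.1% in casein + GLP-2 against casein, 5.66% in casein against control, 2.64% in casein + GLP-2 against GLP-2 and 4.28% in the interaction. Without casein, GLP-2 against control gave log2 fold changes of 1.61 for CLCA1 (95% interval -0.08 to 3.29, adjusted p = 0.378), 1.09 for TFF3 (-0.02 to 2.21, adjusted p = 0.367) and 0.74 for SPINK4 (-0.30 to 1.79, adjusted p = 0.503). With 1 steer left out, the value for CLCA1 ran from 1.29 to 2.59. The lowest was without control replicate 5, a trailing library (adjusted p = 0.569), and the highest without control replicate 1 (adjusted p = 0.336). With casein, the same peptide gave 0.94 for CLCA1 (-0.57 to 2.46), 0.16 for TFF3 (-0.85 to 1.16) and -0.35 for SPINK4 (-1.31 to 0.60). Here the value for CLCA1 with 1 steer left out ran from 0.71 to 1.60. The lowest was without casein replicate 3, a trailing library (adjusted p = 0.576), and the highest without casein replicate 4 (adjusted p = 0.187).

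The test of the difference itself, the interaction of casein and GLP-2, was above 0 for 1 of 7 genes, REG4 (47.3% of all genes were), and passed for none. It was -1.10 for SPINK4 (SE 0.683, 95% interval -2.51 to 0.32), -0.93 for TFF3 (SE 0.722) and -0.89 for SPDEF (SE 0.603), each with an adjusted p of 0.996 by edgeR. SPDEF stood at 0.20 without casein and -0.69 with it. Casein against control gave estimates between -0.58 (REG4) and 0.52 (SPINK4), and casein + GLP-2 against GLP-2 between -0.59 (SPDEF) and -0.06 (AGR2).

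**Figure D3:**
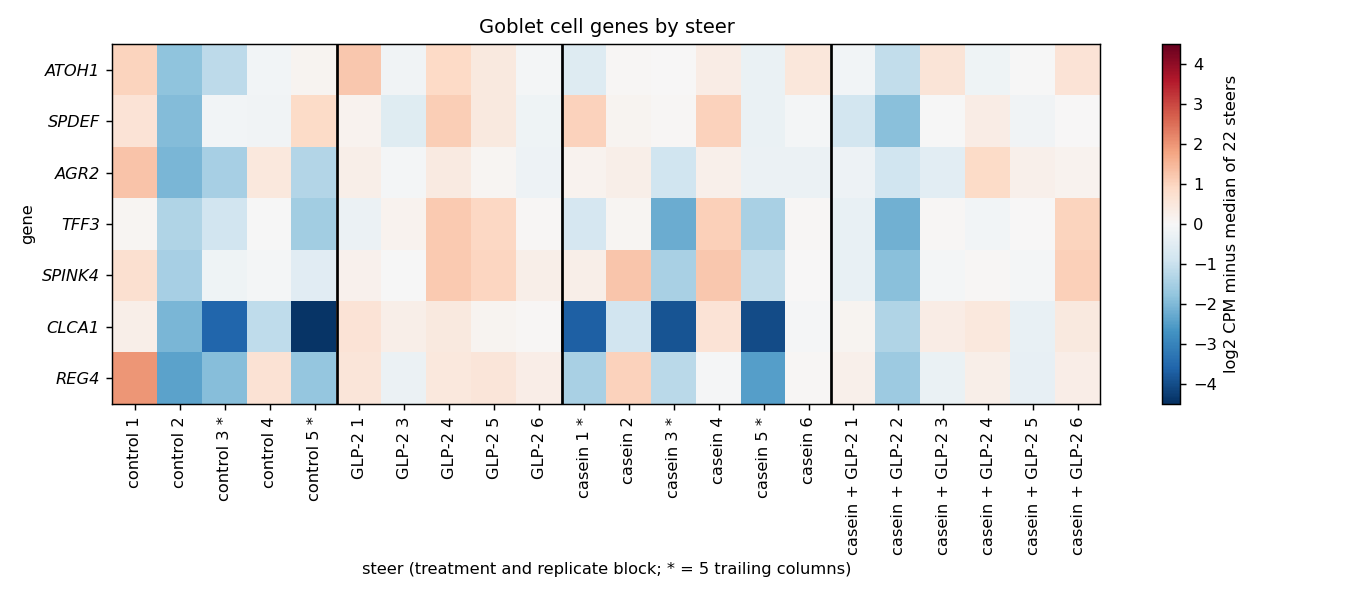
Log2 CPM of each goblet cell gene in every steer relative to that gene's median over the 22 steers, with steers ordered by treatment and replicate block. Asterisks mark the 5 trailing libraries, and the colours show that control replicate 2 and casein + GLP-2 replicate 2 are low in most genes.

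The goblet cell genes varied together between steers of the same treatment. Control replicate 2 was among the 3 lowest steers for 5 of the 7 genes and casein + GLP-2 replicate 2 for 4. GLP-2 replicate 4 and casein replicate 4 were each among the 3 highest for 4 genes. Control replicates 3 and 5 and casein replicate 3, all trailing libraries, were among the 3 lowest for 3 genes each. Control replicate 1 was among the 3 highest for 3 genes. No steer of the GLP-2 treatment was among the 3 lowest for any gene. The low steers named were thus BSA steers except for casein + GLP-2 replicate 2, and the high ones came from control, GLP-2 and casein.

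To measure this, Pearson and Spearman correlations were computed for all 21 pairs on log2 CPM with treatment means removed, with 2-sided permutation tests within treatments (100000 resamples) and Benjamini-Hochberg adjustment over the pairs. Because CLCA1 fell into 2 separate ranges by column set, its correlations are given on the 17 leading libraries only. Over 22 steers, the 15 pairs without CLCA1 had a median r of 0.66 (range 0.44 to 0.92) and a median rho of 0.65, and 14 of 15 passed for r and 13 for rho. Within the 17 leading libraries the 21 pairs had r between 0.60 and 0.91, with a median of 0.77, and the median rho was 0.59. All 21 passed for r (highest adjusted p = 0.0464, permutation test) and 11 for rho.

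The closest pair was TFF3 and SPINK4, the most abundant secreted products, with r = 0.91 and rho = 0.87 over the 17 leading libraries (adjusted permutation p = 0.00175 and 0.00483). AGR2 and REG4 had r = 0.90 and rho = 0.72. On the same 17 libraries SPDEF correlated with each of the other 6 genes at r of 0.77 or more, highest with SPINK4 (r = 0.88, rho = 0.86). Over 22 steers its r was lower, from 0.44 with REG4 (adjusted permutation p = 0.107) to 0.71 with SPINK4. Within the 17 leading libraries, r was also computed without the 2 steers farthest from the median of the first gene of each pair. It stayed positive for all 21 pairs, with a median of 0.59 and a range of 0.24 to 0.83. Leaving out the farthest steers also narrows the range of the first gene, which can lower r by itself. The fall therefore does not show how far r in that set rested on a few steers. TFF3 with REG4 was the lowest there, at 0.24 where it was 0.60 with those steers. Over 22 steers this pair did not fall, with r of 0.685 with and 0.694 without the 2 farthest steers. The lowest pair without CLCA1 was then SPDEF with REG4, at 0.18.

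**Figure D4:**
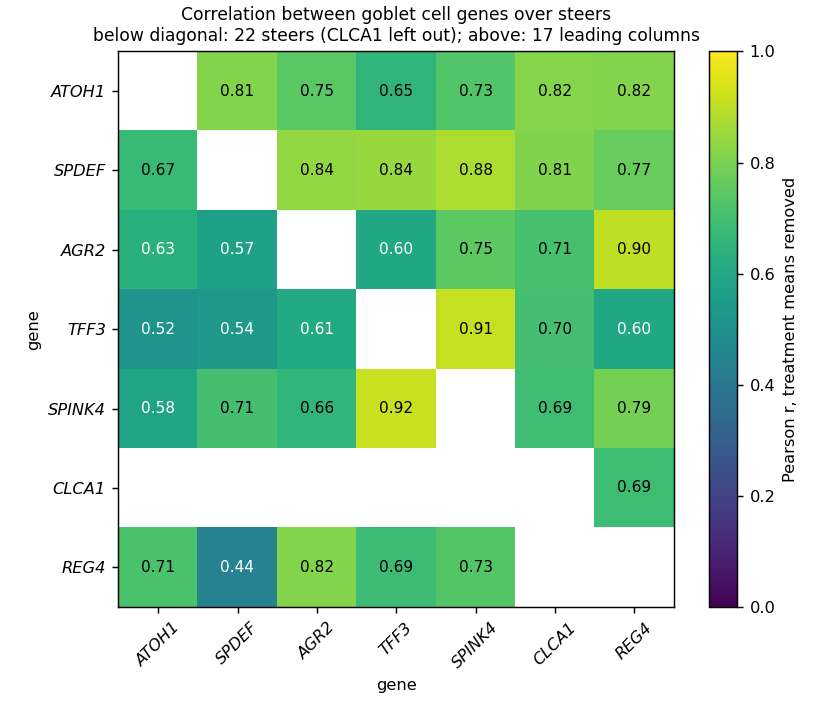
Pearson r between goblet cell genes over steers, on log2 CPM with treatment means removed. Values below the diagonal use 22 steers and leave out CLCA1, and values above it use the 17 leading libraries, where r is between 0.60 and 0.91.

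The genes whose pattern over the 22 steers was most like that of the goblet cell genes were found with the mean of the 7 standardised levels, as a description without a test. The highest r was that of RAP1GAP, a GTPase-activating protein for Rap1 (r = 0.86). FOXA3, a forkhead factor of the secretory lineage (r = 0.81), GLRX2, a glutaredoxin (r = 0.79), KRT18, an epithelial keratin (r = 0.75), and AGR3, the close relative of AGR2 (r = 0.75), came next. H3F3A, BCAS1, MANSC1 and CMBL followed, with r from 0.75 down to 0.73. The median r of all 15086 genes was 0.023. AGR2 and AGR3 are paralogs, and the multi-mapping setting of the counting is not given in the sources used here, so reads could be split between them. By contrast, the median r of the 20 villus enterocyte markers was -0.029, of the 10 smooth muscle markers -0.089 and of the 16 B cell follicle markers -0.00037, while 6 Paneth cell markers had a median of 0.43.

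The rest of the mucus pathway was taken from 6 lists of 117 genes found, of which 100 passed the filter. Between GLP-2 and BSA 15 of the 100 were called by edgeR, 12 higher and 3 lower, beside 13.5% of all genes called, 5.13% higher and 8.37% lower. On the 17 leading libraries, and with the column set as a term, 0 of these genes were called by edgeR, where 0% of all genes were. On the 17 libraries 14 of the 101 tested there had an unadjusted p at or under 0.05, where 13.3% of all genes did. With the column set as a term 13 of 100 did, and the share over all genes was not computed for that fit. With the replicate block as a term 7 were called, 7 higher and 0 lower, where 4.95% of all genes were: CREB3L4, CREB3L1, GALNT7, GCNT4, GUCY2C, SLC4A4 and GCNT2. The other 8 (HNF4A, RAB27A, GALNT12, GCNT3, ST6GALNAC2, MEP1B, ST14 and TGM2) lost their call there, with adjusted p from 0.0509 to 0.392. The values below are those on 22 steers without the block and hold for that fit only.

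Of the secretory lineage and goblet transcription factors, 3 of 17 rose with GLP-2 and 0 fell. CREB3L4, a membrane-bound bZIP factor, was at 7.56 ± 2.23 CPM (SD, n = 11) against 3.44 ± 1.79 (log2 fold change 1.13, SE 0.273, adjusted p = 0.0218). Its relative CREB3L1 was at 121 ± 29.7 against 69.4 ± 26.2 CPM (0.82, adjusted p = 0.0226). HNF4A, a nuclear receptor of the whole intestinal epithelium and not of goblet cells alone, was at 159 ± 43.8 against 92.4 ± 43.1 CPM (0.80, adjusted p = 0.0346), and kept its call in 11 of 22 fits that each left out 1 steer.

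Of 26 genes of mucin folding, packaging and secretion, 0 rose and 1 fell. RAB27A, a small GTPase of granule exocytosis that leukocytes use as well, averaged 35.8 ± 5.75 CPM after GLP-2 against 57.2 ± 24.5 CPM after BSA (log2 fold change -0.69, adjusted p = 0.0297). Its log2 fold change was -0.55 on the 17 leading libraries and 0.010 with a score of the B cell follicle markers as a term. Of 22 genes of mucin-type O-glycosylation, 4 rose and 1 fell. GALNT7 (0.78) and GALNT12 (0.70), which extend or start O-glycans with N-acetylgalactosamine, and GCNT4 (0.73), a branching enzyme, rose on the log2 scale with adjusted p between 0.0235 and 0.0307. GCNT3, another branching enzyme, was called at 2.02 (adjusted p = 0.0446) through 1 steer: GLP-2 replicate 5 was at 171 CPM and the next highest at 22.5 CPM, and without it the log2 fold change was 0.42 (adjusted p = 0.413). ST6GALNAC2, a sialyltransferase, fell by 1.02 on the log2 scale (adjusted p = 0.0452), but by 0.16 on the 17 leading libraries.

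Of the membrane and other gel-forming mucins, 3 passed the filter and 0 were called by edgeR. MUC13, a membrane mucin of enterocytes and goblet cells, had the smallest p and averaged 1084 ± 751 CPM after GLP-2 against 430 ± 353 CPM after BSA (log2 fold change 1.36, SE 0.491, adjusted p = 0.0619). On the 17 leading libraries its log2 fold change was 0.72 (adjusted p = 0.458 by edgeR), with medians of 813 CPM after GLP-2 and 643 CPM after BSA. Of 16 genes for mucus ions, water and unfolding, 3 rose and 0 fell. GUCY2C, the guanylin receptor, was at 268 ± 109 against 122 ± 62.6 CPM (1.15, adjusted p = 0.0229). SLC4A4, a sodium bicarbonate cotransporter, was at 98.1 ± 55.7 against 30.4 ± 23.2 CPM (1.71, adjusted p = 0.0239). MEP1B, the subunit of meprin that cleaves mucus free from the surface, rose by 1.06 on the log2 scale (adjusted p = 0.0356). Enterocytes carry these 3 products too.

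Of 16 other goblet secreted and surface proteins, 2 rose and 1 fell. GCNT2, a branching enzyme of blood group antigens (log2 fold change 1.01, adjusted p = 0.0241), and ST14, the membrane protease matriptase (0.53, adjusted p = 0.0403), rose. TGM2, a transglutaminase, fell by 1.37 on the log2 scale (adjusted p = 0.0494) and kept its call in 6 of 22 fits that each left out 1 steer. Without control replicate 3 its log2 fold change was -1.09. On the 17 leading libraries it was -0.46, and with a score of the B cell follicle markers as a term it was 0.64. Of the other called genes, CREB3L4, CREB3L1, GALNT7, GCNT4, GUCY2C, SLC4A4 and GCNT2 kept their calls in all 22 such fits, RAB27A in 18, GALNT12 in 17, MEP1B in 12, ST14 in 11, and ST6GALNAC2 and GCNT3 in 9.

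Between casein and water 0 of 100 mucus pathway genes were called by edgeR (0% of all genes) or by DESeq2 (0.0355% of all genes), and 5 had an unadjusted p at or under 0.05 in edgeR, beside 3.36% of all genes. The smallest p in each list belonged to HES6 (log2 fold change -1.59), VAMP8 (-0.24), GCNT3 (-1.65), MUC20 (-0.79), SLC26A6 (-1.18) and CAPN8 (0.90), each with an adjusted p of 0.994. Single steers moved several of these values. Without GLP-2 replicate 5 GCNT3 was at 0.29 and without GLP-2 replicate 3 SLC26A6 was at -0.077. Without control replicate 3 MUC20 was at -0.26, and without casein replicate 1 CAPN8 was at 0.57.

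Markers of other cell types were counted between GLP-2 and BSA on the same 22 steers, as called by edgeR. Of all genes, 5.13% were called higher and 8.37% lower in that fit. On the 17 leading libraries, and with the column set as a term, 0% of all genes were called. Of 14 B cell follicle markers tested, 13 fell, with sums of 108 to 163 CPM in GLP-2-injected steers and 136 to 2682 CPM in BSA steers, and CXCL13, CR2 and MS4A1, markers of follicles and their B cells, were above 0 in every steer. Of 20 villus enterocyte markers 2 rose and 0 fell (sums 31130 to 144727 against 3427 to 97716 CPM), and of 15 crypt stem and proliferation markers 4 fell (259 to 959 against 276 to 1234 CPM). Of T cell markers 1 of 10 fell (874 to 1716 against 639 to 2108 CPM), of tuft cell markers 1 of 5 fell (22.5 to 61.7 against 30.6 to 221 CPM) and of enteroendocrine markers 1 of 11 rose (93.8 to 287 against 95.5 to 183 CPM). None was called of 10 smooth muscle (67.4 to 921 against 80.8 to 1578 CPM), 6 Paneth cell (246 to 4562 against 136 to 3927 CPM) or 2 duodenal and gastric gland markers (9.05 to 49.5 against 0.93 to 61.2 CPM). With the B cell follicle score as a term, CLCA1 was at 0.74 (95% interval -0.61 to 2.09) and 0 goblet cell genes were called. The part of these cell types in the goblet cell values was not tested further.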

How the data were processed

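RNA-seq of the jejunal mucosa was used for 22 steers, and groups were taken from the labels. The authors filtered reads with fastp, aligned them to ARS-UCD1.2 with HISAT2 2.0.5 and counted them per gene with featureCounts 1.5.0-p3. They deposited raw counts, and FPKM values whose divisor per library followed the TMM factor rather than the plain total. Libraries were prepared with strand information, but the strand setting of the counting is not given in the sources used here, so overlapping genes on opposite strands may share reads.

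Genes were filtered (filterByExpr, minimum count 10), scaled by TMM and tested in edgeR 4.0.16 (R 4.3.3) with the quasi-likelihood test, with Benjamini-Hochberg adjustment over all genes tested, and a threshold of 0.05. CPM values are TMM-scaled, log2 CPM having a prior count of 2. DESeq2 1.42.0 and limma 3.58.1 on log2(FPKM + 1) and log2(FPKM + 0.1) were alternatives, together with DESeq2 size factors in edgeR, no filter, the other factor, a B cell follicle score, the 17 leading libraries, the column set as a term, the treatments compared alone, each steer left out, and the replicate block. Correlations used Python 3.11.15, with log2(FPKM + 1), treatment means kept and block means removed as alternatives. Coordinates are those of the deposited tables, and levels between genes were compared by FPKM only.

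The labels name the replicate number as the body weight block, so steers of a number are paired by design. Over all genes, same-block steers had a mean correlation of 0.033 (30 pairs) and other pairs -0.0064 (151 pairs). P-values refer to the spread between animals. The tests were checked on simulated counts in which some genes had a log2 change of 2 in either direction. Of the changed genes tested, 176 of 193 were called for GLP-2 against BSA and 175 of 190 for casein against water. For the interaction only 95 of 198 were, so an interaction of that size could be missed. False calls numbered 6, 9 and 6.

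The goblet cell genes and all lists were chosen with earlier results of these data known. Named in the text are the 7 goblet cell genes, in each mucus pathway list the genes past the threshold (at most 4 in each direction, or else that with the smallest p), and the 10 genes most like the goblet score, of which 1 is not reported here. Duplicated symbols were kept as separate rows. No set of genes was tested as a set.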

Additional observations from a re-analysis of the deposited data

Results flagged for a closer look

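In casein + GLP-2 steers, REG4 of replicate 2 stood apart from the other 5 by Dixon's test. Its log2 CPM was 5.64 where the others lay between 6.89 and 7.59, and the gap took 0.643 of the range of the treatment. It was the only sample so flagged in 28 gene and treatment groups examined, of which chance alone flags about 1 in 20. The same steer was the lowest of its treatment for each of the 7 genes, with TFF3 at 123 CPM, SPINK4 at 62.0 CPM and CLCA1 at 271 CPM.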

How the results depend on the processing

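The count of 0 goblet cell genes called held in 6 of the 7 comparisons under each alternative run. For GLP-2 against BSA it was 1, CLCA1, with limma on log2(FPKM + 1) (15% of all genes called) and 1 on log2(FPKM + 0.1) (14.2%), and 0 to 1 when 1 steer was left out: without casein replicate 4 CLCA1 was called (1.58, adjusted p = 0.0404). With the replicate block the goblet count stayed 0 and the mucus pathway count between GLP-2 and BSA was 7 in place of 15. That count was 0 with the B cell follicle score as a term, 0 on the 17 leading libraries and 0 with the column set as a term, and 7 to 30 when 1 steer was left out (7 without control replicate 1 or casein + GLP-2 replicate 3; 8 without control replicate 3 or 5, casein + GLP-2 replicate 1 or GLP-2 replicate 6; 9 without casein replicate 3 or casein + GLP-2 replicate 2; 23 without casein replicate 6; 30 without control replicate 2). Over all genes the calls between GLP-2 and BSA were 1881 by edgeR, 2999 by DESeq2, 689 with the block and 0 on the 17 libraries, with the column set or with the follicle score. The cause was not tested.

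Among the goblet cell genes, signs turned only for estimates that passed no test. The 3 mucus pathway genes called lower between GLP-2 and BSA were above 0 with the follicle score as a term. TGM2 was then at 0.64, ST6GALNAC2 at 0.10 and RAB27A at 0.010. Between GLP-2 and BSA, on the 17 libraries and with the column set as a term, AGR2 was at -0.24 and -0.21, REG4 at -0.63 and -0.59, and SPINK4 at -0.26 and -0.23 (-0.070 with the follicle score). Between casein and water, CLCA1 was at 0.086 with the other factor as a term, 0.0369 on the 17 libraries and 0.0375 with the column set. AGR2 was at 0.16 and 0.17 with limma, 0.15 with the block and 0.082 with the column set, SPDEF at 0.075 with the block and SPINK4 at 0.011 on the 17 libraries. Between casein + GLP-2 and casein, TFF3 was at -0.49 on the 17 libraries and -0.28 with the column set. With 1 steer left out, the range was -0.042 to 0.56 for REG4 with GLP-2 against BSA. Against water it was -0.31 to 0.064 for TFF3, -0.18 to 0.11 for CLCA1, -0.25 to 0.045 for SPDEF, -0.16 to 0.18 for AGR2 and -0.22 to 0.096 for SPINK4. It was -0.10 to 0.43 for SPDEF between GLP-2 and control and -0.17 to 0.60 for TFF3 between casein + GLP-2 and casein. For CLCA1 it was 1.29 to 2.59 between GLP-2 and control and 0.71 to 1.60 between casein + GLP-2 and casein, past the threshold in none. The median r among goblet cell genes, 0.63 over all 21 pairs and 22 steers, was then between 0.59 and 0.67, and it was 0.56 with block means removed.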

Other observations

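Enteroendocrine cells share the ATOH1-dependent lineage with goblet cells, and their 20 markers were summed as well. The sum was 180 to 287 CPM in the 5 GLP-2 steers and 100 to 155 CPM in the 5 control steers. In casein + GLP-2 steers it was 93.8 to 214 CPM and in casein steers 95.5 to 183 CPM. A few markers made up much of it: the median over 22 steers was 57.4 CPM for CHGA alone and 151 CPM for the sum. The share of all genes with ranges as far apart between these treatments was not computed, and no test of this sum was made.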
